A study of Procotyla fluviatilis with 12 samples.

Results

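A set of 151 assembled transcripts (contigs) of the planarian flatworm *Procotyla fluviatilis* had reads in 2 of 4 tissue groups and almost none in the others. These are 0.101% of the 149594 contigs in the deposited tables. A contig entered the set with at least 50 reads in each of the 6 Reg- amputated and Reg+ uncut libraries, and at most 5 reads in each of the 6 Reg+ amputated and Reg- uncut libraries. The members were thus chosen by the read counts of all 12 libraries. Their presence in one pair of groups and near absence from the other describes that choice and is given with no test.

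Reg- amputated tissue came from beside a wound made posterior to the pharynx, in the body region labelled deficient in regeneration, 24 hours after the cut. Reg+ uncut tissue came from intact worms, at the matching site of the region labelled proficient in regeneration. Reg+ amputated tissue lay beside a wound made anterior to the pharynx, also at 24 hours, and Reg- uncut tissue came from the matching posterior site of intact worms. The worms were field-collected adults held in the laboratory for a short time, and the labels name no strain, allele or drug. Each group had 3 libraries, and each library came from the pooled RNA of 3 worms. The replicate numbers are 1, 2 and 3, and in Reg- uncut 1, 3 and 4. Since nothing in the labels ties the pools to separate collections, the p-values below measure the spread between pools, which may in part be technical.

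Planarians rebuild lost parts from neoblasts, the dividing stem cells spread through their bodies, after a wound response that switches on transcripts near the cut. Most familiar species can regrow a head from almost any fragment. *Procotyla fluviatilis* regrows a head from anterior cuts and not from posterior ones, and lowered Wnt/beta-catenin signalling, the pathway that specifies posterior identity in planarians, is known to restore heads in its posterior tissue. The tables pair no gene names with the contigs, so no member is given a name, a function or a sequence, and the labelled tissue was not checked against marker genes. A de novo assembly can split a transcript, so 151 contigs need not be 151 genes.

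Library depth ran from 22038256 to 31266924 reads. Fitted over all contigs, 62408 of which had enough reads to be tested, the comparisons that change one label called many contigs and those that change both called none by edgeR. The count was 4019 for Reg+ amputated against Reg+ uncut and 1632 for Reg- amputated against Reg- uncut, and 0 in each comparison of an amputated group with the uncut group of the other region. The count of 4019 dropped to 1747, 1753, 1944 and 2647 when Reg+ amputated replicate 1 or 2 or Reg+ uncut replicate 1 or 3 was left out, and was 6408 and 7699 without Reg- amputated replicate 1 or 3. The comparisons with 0 calls had 2374 (Reg- amputated against Reg+ uncut) and 5792 contigs (Reg+ amputated against Reg- uncut) at an unadjusted p under 0.05 by edgeR, and 20 and 542 called by DESeq2. In this design an exchange of labels between whole groups and a biological response of this shape cannot be told apart, so every direction below holds as labelled. Reg- amputated replicate 3 was the lowest of the 6 libraries with reads for 30.9% of the 27640 contigs with at least 50 reads in each of them, and the highest for 23.3%, more often than any other library in both cases.

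The members together took a small and uneven share of each library in which they were present. Their share of reads was 0.102%, 0.242% and 0.208% in Reg- amputated replicates 1, 2 and 3, and 0.156%, 0.332% and 0.365% in Reg+ uncut replicates 1, 2 and 3. Reg+ uncut replicate 3 was thus 3.58 times Reg- amputated replicate 1, and the groups overlapped, since Reg+ uncut replicate 1 lay below Reg- amputated replicates 2 and 3. The group means were 0.184% ± 0.0731 in Reg- amputated and 0.284% ± 0.113 in Reg+ uncut libraries, against 0.000621% ± 0.000162 in Reg+ amputated and 0.00063% ± 0.00017 in Reg- uncut libraries (SD, n = 3 each). In bulk tissue, fewer cells of a type and less RNA per cell cannot be told apart.

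Counted in reads, the typical member was well covered in the libraries where it was present and had about 1 read elsewhere. The median member had 137, 336 and 322 reads in Reg- amputated replicates 1, 2 and 3, and 214, 479 and 426 reads in Reg+ uncut replicates 1, 2 and 3. It had 1, 0 and 1 reads in Reg+ amputated replicates 1, 2 and 3, and 1, 1 and 0 reads in Reg- uncut replicates 1, 3 and 4. No library fell between these states for any member, as the thresholds require.

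**Figure D1:**
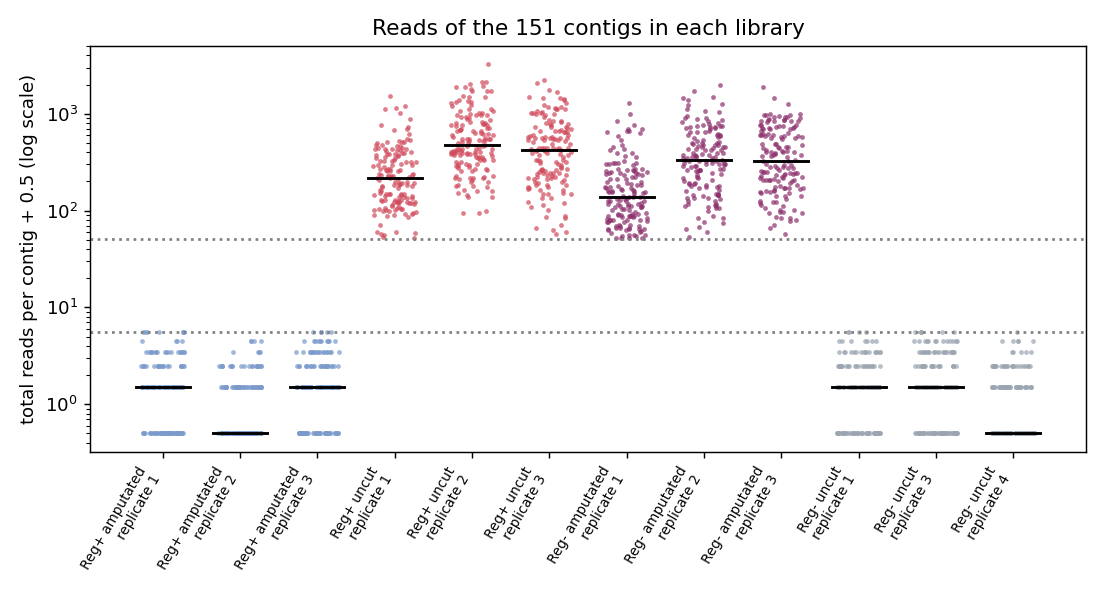
Total reads of each of the 151 contigs (points, plus 0.5 so that 0 can be drawn, log scale) in each of the 12 libraries, with the median as a bar and the thresholds of 50 and 5 reads as dotted lines. Medians lie between 137 and 479 reads in the Reg- amputated and Reg+ uncut libraries and at 0 or 1 in the Reg+ amputated and Reg- uncut libraries.

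The rule picked out the lower-abundance side of a separate group of contigs. For the 27640 contigs with at least 50 reads in every Reg- amputated and Reg+ uncut library, the depth-scaled reads of these groups were divided by those of Reg+ amputated and Reg- uncut. Most of the 27640 (96.4%) lay within 2-fold of equality, which is 1 on the log2 scale. Counts per log2 unit then dropped to 34, 37 and 27 contigs between 3 and 6 on the log2 scale, and rose again to 36, 65 and 101 between 6 and 9 before they dropped to 54, 7 and 1. Of the 264 contigs at or past 64-fold, 149 were members, and the remaining 2 members lay below that ratio.

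The 115 contigs past 64-fold that were not members were more abundant, and their highest count among the Reg+ amputated and Reg- uncut libraries ran from 6 to 173 reads with a median of 11. Their summed reads over the Reg- amputated and Reg+ uncut libraries had a median of 8283, against 1972 for members. Their median ratio on the log2 scale was 7.94, against 8.60 for members. It was the limit of 5 reads that kept them out. The 64-fold line was drawn after the distribution had been seen.

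**Figure D2:**
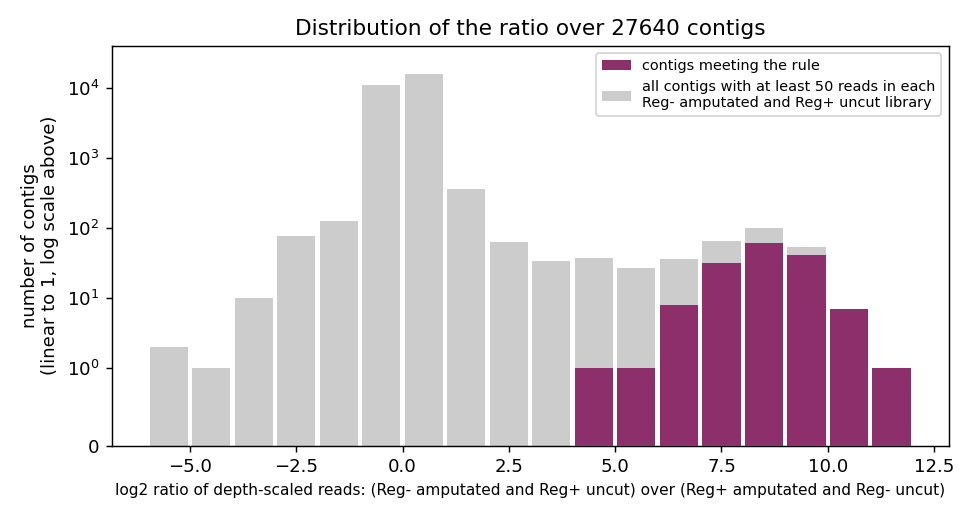
Number of contigs (linear up to 1, log scale above) by the log2 ratio of depth-scaled reads in Reg- amputated and Reg+ uncut over Reg+ amputated and Reg- uncut libraries, for 27640 contigs (grey) and for the 151 members among them (purple, drawn in front). A second, smaller peak stands at 8 to 9, with 101 contigs of which 60 are members.

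The traces in the Reg+ amputated and Reg- uncut libraries were small, though present for most members. Over all members, 382308 reads were found in the Reg- amputated and Reg+ uncut libraries, against 1076 in the Reg+ amputated and Reg- uncut libraries. Scaled for depth, the traces were 0.275% of the reads where members were present. Member reads numbered 197, 111 and 218 in Reg+ amputated replicates 1, 2 and 3 and 196, 228 and 126 in Reg- uncut replicates 1, 3 and 4. Every one of these 6 libraries held some, and between 70 and 107 of the 151 members had at least 1 read in a given library. A count of 0 in one library allows a level of up to 0.0959 to 0.123 CPM (3 reads of the Reg+ amputated and Reg- uncut library totals).

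Only 6 members had no read at all in these 6 libraries, and 36 had a highest count of 1, 35 of 2, 27 of 3, 25 of 4 and 22 of 5. Members with more reads where present also had more traces where nearly absent. Across the 151 members, which share their libraries and whose counts the rule bounds on both sides, the summed reads of the 2 states had a Spearman rho of 0.523, given as a description. The uniquely assigned share was 99.4% of the reads where members were present and 98.1% of the trace reads.

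Among the members with no trace read, contig8374 (1158 nt) had the most reads, with 76, 84 and 159 in Reg- amputated replicates 1, 2 and 3 and 432, 177 and 649 in Reg+ uncut replicates 1, 2 and 3. Set against 3 reads in place of 0 over the 6 other libraries, it was 537-fold higher where present. The lower limit of its 95% exact (Clopper-Pearson) interval was 436-fold. The 281 nt contig66832 followed with 77, 333 and 296 reads in Reg- amputated and 182, 374 and 263 in Reg+ uncut replicates 1, 2 and 3. On the same basis it was 519-fold higher, with an exact lower limit of 422-fold. The Reg- amputated and Reg+ uncut libraries overlap for contig66832, whereas for contig8374 every Reg+ uncut library exceeded every Reg- amputated library. The third, contig136696 (282 nt), had 75 to 288 reads per library where present. It was 332-fold higher on that basis, with an exact lower limit of 270-fold. The fourth, contig115997 (289 nt), had 84 to 192 reads per library and was 254-fold higher, with an exact lower limit of 206-fold.

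The members were fairly abundant for their length. The mean deposited RPKM over the 6 libraries with reads, a level per kilobase, ran from 2.88 to 218 with a median of 31.3, and the quartiles were 19.7 and 63.2. The 27640 contigs with at least 50 reads in each of these libraries had a median of 12.6, and 130 of the 151 members stood above it. A short contig needs a higher RPKM to reach 50 reads, and the members were short. The part of length in this difference was not tested.

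The 6 members with the highest RPKM all lay between 205 and 316 nt in length. The first of them, contig37522 (316 nt), had 988, 1987 and 1874 reads in Reg- amputated replicates 1, 2 and 3 and 1008, 3234 and 2230 in Reg+ uncut replicates 1, 2 and 3, against 1, 2 and 3 in Reg+ amputated replicates 1, 2 and 3 and 4, 4 and 1 in Reg- uncut replicates 1, 3 and 4. Its level was 177 ± 66.5 RPKM in Reg- amputated and 260.005 ± 125 RPKM in Reg+ uncut libraries, against 0.233 ± 0.121 RPKM in Reg+ amputated and 0.326 ± 0.187 RPKM in Reg- uncut libraries (SD, n = 3 each). Replicate 1 was the lowest library in both groups in which it was present. The ratio of summed, depth-scaled reads was 771, with a 95% exact (Clopper-Pearson) interval from 467 to 1378 that covers counting error only.

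Next in level were contig101538 (205 nt) and contig102240 (224 nt), at 204 and 201 RPKM over the 6 libraries. Reads of contig101538 numbered 691, 1478 and 837 in Reg- amputated and 673, 1882 and 1287 in Reg+ uncut replicates 1, 2 and 3, with 15 over the other 6 libraries. For contig102240 they numbered 594, 1442 and 973 in Reg- amputated and 699, 2122 and 1502 in Reg+ uncut replicates 1, 2 and 3, with 13 elsewhere. In both contigs replicate 2 was the highest and replicate 1 the lowest library of each group in raw reads. The other members of this top group, contig118207 (272 nt), contig116687 (211 nt) and contig133881 (268 nt), stood at 155, 143 and 140 RPKM.

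The members were short. Their median length was 319 nt, with quartiles of 263 and 495 nt and a range from 190 to 1407 nt, and they summed to 63270 nt. The median over all contigs was 348 nt, close to theirs. Contigs that met the same read minimum without regard to the other groups were far longer, with a median of 895 nt and quartiles of 478 and 1539 nt. Of the members, 76.2% were under 500 nt, against 26.5% of those 27640 contigs and 67.7% of all contigs. The 115 more abundant contigs past 64-fold had a median of 398 nt.

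**Figure D3:**
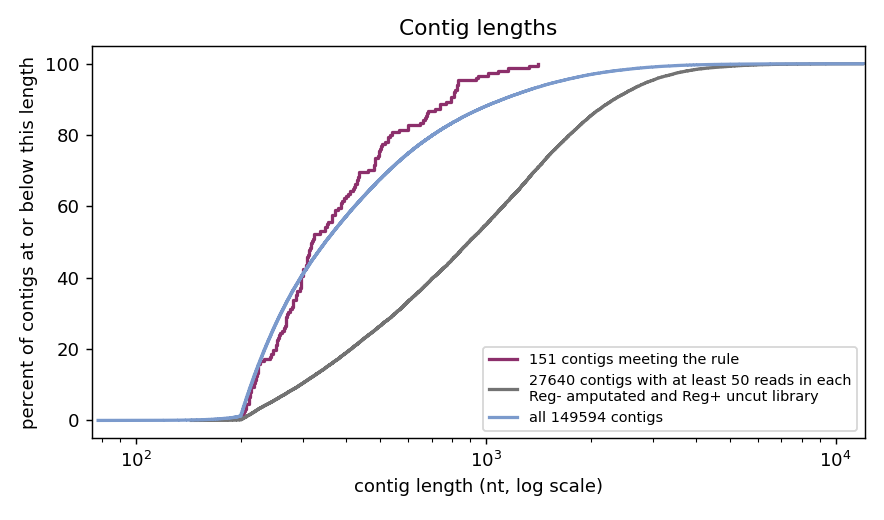
Percent of contigs (vertical) at or below each length in nt (horizontal, log scale) for the 151 members, the 27640 contigs with at least 50 reads in each Reg- amputated and Reg+ uncut library, and all 149594 contigs. The curve of the members rises with that of all contigs and reaches 100% at 1407 nt, left of the curve of the well-covered contigs.

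The longest members were among the less abundant per length. At 1407 nt, contig52797 had 92, 60 and 102 reads in Reg- amputated and 97, 163 and 148 in Reg+ uncut replicates 1, 2 and 3, a mean of 2.88 RPKM and the lowest of all members. The 1328 nt contig9754 had 112, 169 and 140 reads in Reg- amputated and 128, 157 and 163 in Reg+ uncut replicates 1, 2 and 3, with 10 trace reads spread over all 6 other libraries and a ratio of 88.8 (95% exact interval 48.1 to 186). The third, contig8374, was described above. At the other end, contig102252 (190 nt), contig102452 (200 nt) and contig104389 (203 nt) stood at 27.5, 38.8 and 38.8 RPKM, near the median of the members.

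Reads assigned to members were nearly all unique to them. The uniquely assigned share over the 6 libraries with reads had a median of 99.9% among members and was 100% for 61 of them. It was below 90% for 1 member (0.662%), against 7.08% of the 27640 well-covered contigs. That member, contig37212 (742 nt), had a unique share of 66.7%, so that its counts depend on how the authors placed shared reads. It had 65, 134 and 570 reads in Reg- amputated and 121, 214 and 245 in Reg+ uncut replicates 1, 2 and 3, with its highest count in Reg- amputated replicate 3. Next lowest in unique share were contig86457 (269 nt) at 93.0% and contig18940 (388 nt) at 95.4%.

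The comparison of Reg- amputated with Reg+ uncut tissue sets the groups with reads against each other. The rule asks the same minimum of raw reads of both, so it does not by itself set the direction of this difference. Depth differed, from 22038256 reads in Reg+ uncut replicate 3 to 30870592 in Reg- amputated replicate 3. The minimum is thus not the same in CPM, and the part of this in the direction was not tested. The counts compared are also those that the rule read. No member passed the test (edgeR quasi-likelihood, adjusted p under 0.05, 12 libraries), as 0% of all 62408 contigs did. All 151 members had passed the filter on low counts, through the groups in which they are present. By fitted fold change 141 members were lower in Reg- amputated than in Reg+ uncut libraries and 10 higher. The median log2 fold change of the members was -0.58, beside 0.00207 over all contigs tested. The spread between single libraries was 1.04, with the replicate numbers disregarded. It is the root of the summed variances of the median member's log2 CPM in both groups. It was not divided by the number of libraries, so it is not the standard error of the fold change. Between same-numbered libraries the members' median log2 ratio was -0.57, -0.46 and -0.76 in replicates 1, 2 and 3. The 1.04 is thus not the spread of the differences between same-numbered libraries.

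An unadjusted p under 0.05 by edgeR was found for 26 members, against 3.8% of all contigs tested. Non-overlapping CPM ranges were about as frequent as elsewhere. For 9 members every Reg- amputated library lay below every Reg+ uncut library, which is true of 5.62% of the 27640 well-covered contigs, and for 2 members every one lay above, true of 1.6%. With the replicate numbers disregarded, leaving out Reg- amputated replicate 1 or Reg+ uncut replicate 2 moved the members' median log2 fold change to -0.28 or -0.33. Leaving out Reg- amputated replicate 2 or Reg+ uncut replicate 1 moved it to -0.92 or -0.89.

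Set side by side by replicate number, the difference ran the same way in each pair. In replicate 1, 130 members were lower in Reg- amputated than in Reg+ uncut tissue by CPM, in replicate 2 it was 122, and in replicate 3 it was 135. Of the 27640 well-covered contigs, 58.4%, 51.1% and 60.2% were lower in replicates 1, 2 and 3. The median log2 ratio of the members was -0.57, -0.46 and -0.76 in replicates 1, 2 and 3, beside -0.05, -0.01 and -0.08 over the 27640 well-covered contigs. There were 103 members (68.2%) lower in all 3 pairs, against 18.7% of those contigs, and 3 members were higher in all 3, against 6.86% of those contigs. With the replicate number as a block the members called stayed at 0, and 68 members had an unadjusted p under 0.05 by edgeR, against 4.82% of all contigs tested in that fit. Members' levels varied together (median r 0.721 over pairs of members, against 0.0234 for the well-covered contigs). The counts of members, here and above, thus rest on 3 pairs of libraries and are not separate observations. For the same reason the shares of the other contigs are no like-for-like reference.

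**Figure D4:**
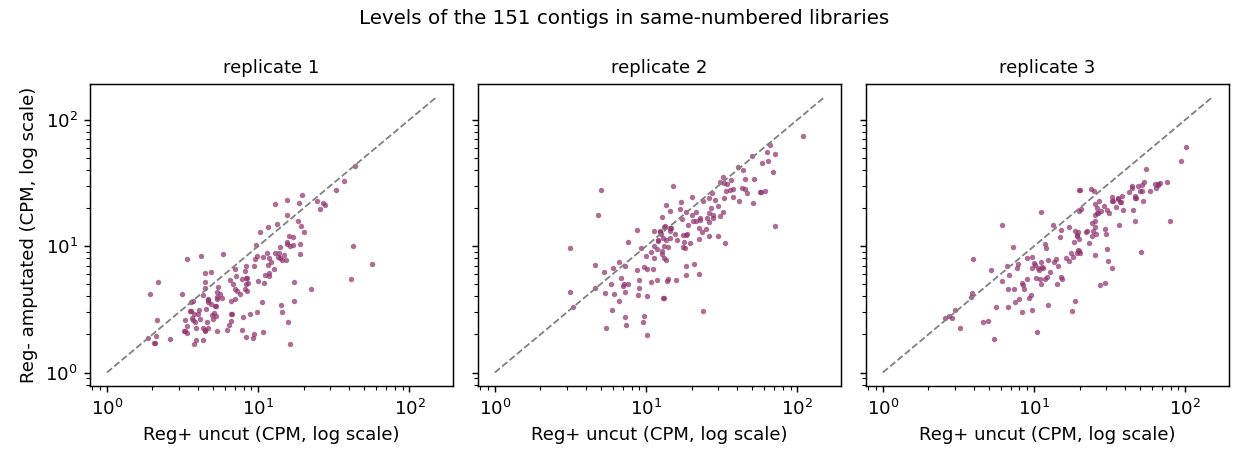
Level of each of the 151 members in CPM (log scales) in Reg- amputated (vertical) and Reg+ uncut (horizontal) libraries of the same replicate number, with the line of equality dashed. In each panel most points lie below the line, 130, 122 and 135 of 151 in replicates 1, 2 and 3.

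The members with the largest differences between these groups did not pass the adjusted test by edgeR. The lowest in Reg- amputated tissue was contig126828 (224 nt), with 58, 53 and 113 reads in Reg- amputated and 226, 304 and 412 in Reg+ uncut replicates 1, 2 and 3. Its groups did not overlap, and its level was 11.2 ± 4.41 RPKM in Reg- amputated against 55.3 ± 24.8 RPKM in Reg+ uncut libraries (SD, n = 3 each). The log2 fold change was -2.29 ± 0.34 (standard error), at an adjusted p of 0.996 by edgeR. DESeq2 gave an adjusted p of 0.00024 and called this one member, among the 0.0363% of contigs that it called in all. The adjusted p was 0.286 by edgeR with the replicate number as a block.

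The next, contig8374 and contig108358 (428 nt), shared a pattern over the libraries that was not that of most members. For contig108358 the reads were 166, 264 and 483 in Reg- amputated and 1127, 525 and 1747 in Reg+ uncut replicates 1, 2 and 3. In both contigs Reg+ uncut replicate 2 was the lowest of its group and replicate 3 the highest. Their log2 fold changes were -2.21 ± 0.54 and -2.13 ± 0.50 (standard error), at an adjusted p of 0.996 each by edgeR and 0.128 each by DESeq2.

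In the opposite direction, contig3934 (480 nt) had 261, 746 and 457 reads in Reg- amputated and 161, 151 and 135 in Reg+ uncut replicates 1, 2 and 3. Its log2 fold change was 1.63 ± 0.44 (standard error), and the adjusted p was 0.996 by edgeR. For contig84610 (289 nt) the reads were 253, 471 and 243 in Reg- amputated and 115, 143 and 87 in Reg+ uncut replicates 1, 2 and 3, which gives 1.42 ± 0.44 on the same scale. In neither contig did the groups overlap in CPM. The third, contig73717 (408 nt), had overlapping groups and a log2 fold change of 0.91 ± 0.43 (standard error).

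Between Reg+ amputated and Reg- uncut tissue the rule's maximum of 5 reads per library leaves little to compare, and no test of the members is read there. The members' reads summed to 526 over the Reg+ amputated and 550 over the Reg- uncut libraries. The same maximum bounds both sums, so at this depth a difference in level between these groups could not be judged.

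The members' levels varied together over the 6 libraries in which they were present. Centred on each contig's own mean log2 CPM, the median member stood at -1.02, 0.28 and -0.01 in Reg- amputated replicates 1, 2 and 3, and at -0.51, 0.73 and 0.74 in Reg+ uncut replicates 1, 2 and 3. Replicate 1 was thus the low library of both groups. Reg- amputated replicate 1 was the lowest of the 6 libraries for 107 of 151 members by CPM, and Reg+ uncut replicates 2 and 3 were the highest for 66 and 64. Over the 27640 well-covered contigs the medians stayed between -0.05 and 0.05, and Reg- amputated replicate 1 was the lowest library for 23.8%.

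**Figure D5:**
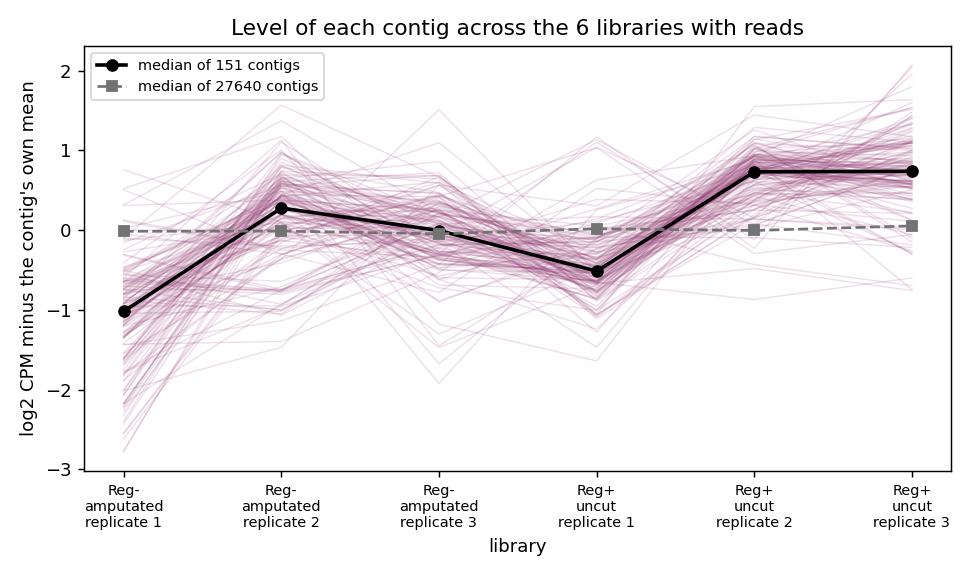
Log2 CPM of each member minus its own mean over the 6 libraries (thin lines, one per contig), with the median of the 151 members (black circles) and of 27640 well-covered contigs (grey squares). Lines join the values of one contig, libraries having no order; the members dip in replicate 1 of both groups, to -1.02 and -0.51, while the grey median stays near 0.

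Members varied far more between replicates than other contigs did. The median SD of log2 CPM within a group was 0.76 in Reg- amputated and 0.75 in Reg+ uncut libraries for members, against 0.23 and 0.18 for the 27640 well-covered contigs. From the lowest to the highest of the 6 libraries the median member changed 4.14-fold, with a range over members from 1.43-fold to 20.9-fold, and the median well-covered contig 1.49-fold. Reg- amputated replicate 3, which stood out over the whole table, was the lowest of the 6 for 11 members and the highest for 4.

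Over pairs of members, Pearson's r across the 6 libraries had a median of 0.721 (quartiles 0.441 and 0.889, 11325 pairs), against 0.0234 for pairs of the well-covered contigs. These correlations rest on 6 libraries that all pairs share, and are given as a description. Among member pairs 91.8% were positive, and 22.7% reached 0.9. The first principal component held 73.5% of the members' variance, beside 66.8% for the well-covered contigs, so a leading component of this size was not peculiar to members. The log2 CPM were centred and not scaled for it, so the most variable contigs weigh most. The shares are therefore not a like measure to r, in which the sets differed. Without Reg- amputated replicate 1 the median r was 0.636 and the share of the first component 58.5%.

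Set against the median profile of the other members, 77 of 151 members had an r of at least 0.9 over the 6 libraries, 146 were positive and 5 negative. Among the well-covered contigs that were not members, 1.25% reached 0.9 and the median r was 0.0586. The well-covered contigs are far more numerous, so this small share is still more contigs than the 77 members. The closest members were contig136690 (223 nt), contig114973 (417 nt) and contig117788 (207 nt), with r of 0.997, 0.995 and 0.992. Of contig136690 there were 432, 906 and 828 reads in Reg- amputated and 527, 1346 and 927 in Reg+ uncut replicates 1, 2 and 3, with 4 elsewhere. The dip in replicate 1 is seen in both groups.

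The members least like the rest were contig136176 (431 nt), contig73717 and contig11011 (817 nt), with r of -0.451, -0.416 and -0.410. Reads of contig136176 numbered 1296, 660 and 542 in Reg- amputated and 1190, 1120 and 556 in Reg+ uncut replicates 1, 2 and 3. It was highest in the libraries where most members were lowest. For contig11011 they numbered 125, 117 and 84 in Reg- amputated and 86, 93 and 63 in Reg+ uncut replicates 1, 2 and 3, and the differences between its libraries were small.

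At the edges of the rule the values ran on without a break. Just inside the minimum, contig147702 (387 nt), contig149021 (429 nt) and contig66787 (287 nt) each had 51 reads in their lowest library, which was Reg- amputated replicate 1 for the first pair and Reg+ uncut replicate 1 for contig66787. Just outside it, contig15897 (892 nt) and contig116939 (254 nt) had 48 reads in their lowest library and contig21544 (831 nt) had 47, all with at most 5 reads in each library of the Reg+ amputated and Reg- uncut groups.

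Just inside the maximum, contig18940, contig11011 and contig15645 (798 nt) had 5 reads in at least 1 of the libraries where they were nearly absent, and 21, 20 and 19 over all 6. With so many traces and few reads where present, contig11011 had the lowest ratio of all members, 29.0 (95% exact interval 18.6 to 47.9). Just outside, contig32842 (217 nt), contig119692 (365 nt) and contig11323 (716 nt) had 6 reads, all 3 in Reg- uncut replicate 3, with 269 to 653, 628 to 1037 and 113 to 1712 reads per library where present.

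In the comparisons that the rule used, every member was called by edgeR, and nothing is read from these counts. In Reg+ tissue 151 of 151 members were lower in amputated than in uncut libraries, a direction called for 4.35% of all contigs tested. In Reg- tissue 151 were higher in amputated than in uncut libraries, against 1.62%. Reg+ uncut exceeded Reg- uncut libraries for 151, against 2.01%, and Reg+ amputated lay below Reg- amputated libraries for 151, against 2.38%. The difference between the amputation responses of the 2 regions was called for 151 in the direction of a higher response in Reg-, against 4.42%. These comparisons share libraries with each other.

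With the groups turned round, the same thresholds selected 15 contigs, with at least 50 reads in each Reg+ amputated and Reg- uncut library and at most 5 in the others. The 151 members are 0.546% of the 27640 contigs that met the minimum, and the 15 are 0.0534% of 28092. Past 64-fold there were 264 contigs in the direction of the members and 38 in the other. In length the sets were alike, with medians of 319 nt for the members and 329 nt for the 15, and in level too, at 31.3 and 25.1 RPKM where present. The 15 ranged from 4.53 to 125 RPKM. The same read thresholds bound both sets, and their part in this likeness was not tested.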

How the data were processed

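RNA-seq libraries (12, from pools of 3 worms) gave tables with, per the file headers, contig length, the count of uniquely assigned reads, the count of all reads and an RPKM. The deposited counts are raw. The deposited RPKM could be rebuilt from total reads, contig length and the library's total with deviations of at most 0.0078 RPKM. The contigs come from a de novo transcriptome, per the series' design text. The authors' aligner is not given in the sources used here, nor is their read counter.

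The members and lists were chosen with earlier results of these data known. All tests ran on total reads of all 12 libraries with edgeR 4.0.16 in R 4.3.3 (filterByExpr, which kept 62408 contigs, TMM, quasi-likelihood test, one mean per group), two-sided, with Benjamini-Hochberg adjustment over all contigs tested and a threshold of 0.05. Standard errors of fold changes were taken as the absolute log2 value over the root of the F statistic. DESeq2 1.42.0, DESeq2 size factors, no filter, unique reads, 2-group fits, a replicate block and leaving out each library were the alternatives. CPM are reads scaled to the library's total, and log2 CPM for covariation had a prior count of 2. Ratios are summed reads over summed library totals. Intervals and floors (3 reads) cover counting error only, since reads without molecular identifiers are not independent molecules.

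Same-numbered Reg- amputated and Reg+ uncut libraries deviated together from group means (r over contigs 0.340, 0.145 and 0.577 for replicates 1, 2 and 3). The numbers of the titles were therefore used to set these groups side by side, and as a block in an alternative fit. The main edgeR test was not paired. One pair of these groups with different numbers, Reg- amputated replicate 1 with Reg+ uncut replicate 2, reached 0.351, above replicates 1 and 2. Pairing by number is thus uncertain. Reg+ amputated and Reg- uncut libraries, which share replicates 1 and 3, did not deviate together (-0.0895 and 0.0174).

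The contigs named are the 6 highest in mean RPKM, the 3 longest and shortest, the 4 with most reads among those with no trace read, the 3 with the largest fold change each way between Reg- amputated and Reg+ uncut, the 3 most and least like the median profile, the 3 on each side of each threshold, and the 3 lowest in unique share. Files with sequences or gene names were not used here.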

Additional observations from a re-analysis of the deposited data

Results flagged for a closer look

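With 3 libraries in a group, no rule for outlying libraries was applied, and single libraries that stood out are described above. The members moved in opposite directions in the 2 regions: 151 of 151 were lower in every Reg+ amputated than in any Reg+ uncut library, and higher in every Reg- amputated than in any Reg- uncut library, by CPM. The choice of the members fixes this pattern, and the difference was not tested here.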

How the results depend on the processing

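The number of contigs meeting the rule was 151. It was 88 with a minimum of 100 reads, and 6, 77 and 265 with a maximum of 0, 2 and 20 reads, and within 1.5 times of 151 with a minimum of 25 reads, a maximum of 10, unique reads, depth-scaled reads or any 1 library left out. For Reg- amputated against Reg+ uncut, edgeR called 0 contigs and 0 members under each alternative run, and DESeq2 called 20 contigs and 1 member (contig126828). For Reg+ amputated against Reg- uncut, 0 contigs were called by the edgeR fit, 10 with no filter, 4 with the replicate block, 11 with only those groups fitted, 542 by DESeq2, and 0 to 29 with 1 library left out (29 without Reg+ amputated replicate 3). With only those groups fitted, all members fell below the filter. The cause of these changes was not tested. The replicate block changed no member's call. The median correlation between members (0.721) ran from 0.636 to 0.838 with 1 library left out, and the first component's share (73.5%) from 58.5% to 81.8%. With at most 5 reads per library, levels in Reg+ amputated and Reg- uncut tissue are limited by depth.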

Other observations

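The identifiers of some members lay close together. Of the 151 members, 42 had another member within 50 identifier numbers. The same count was not made for other sets of contigs, so the 42 stands without a reference. Chains of at least 5 members, each within 50 numbers of the next, were found 2 times: 5 members carried numbers from 66776 to 66832 and 6 members numbers from 117769 to 117810. The chain length and the window were chosen after the values had been seen. In the first run 42 of 57 contigs stayed under 10 reads in every library, and in the second 25 of 42. Of the 2552 other well-covered contigs within 50 numbers of a member, 23 (0.901%) were past 64-fold in the same direction, against 92 (0.369%) of the 24937 farther away, which is given with no test. What the order of the identifiers follows is not given in the sources used here.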
